A study of Mus musculus and Homo sapiens with 27 samples.

Results

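The RNA that streptavidin beads retained from unlabelled MC38 cells was compared with the RNA of labelled MC38 cells taken before any capture. MC38 is a mouse colon carcinoma line. The comparison used 6 of the 27 libraries of the series, the 3 NonLabel_Enrich and the 3 Label_Input libraries of the MC38 12G set, and all genes of that table that passed a filter on low counts, 11676 of 56691 features. The cells of all groups stably carried LAP, an enzyme whose location the labels give as ERM, taken here to mean the endoplasmic reticulum (ER) membrane. Label_Input cells had received PA at 10 mM with the luciferase substrate furimazine at 50 µM over 15 to 60 min. For NonLabel_Enrich the labels state no treatment of its own, so which reagent was withheld from those cells is unknown here. RNA of every group was reacted with 0.1 mM biotin azide for 10 min, and about 1 µg was set aside before capture as input. The 3 Label_Enrich libraries, captured RNA of labelled cells, are given beside the others only where they show how the unlabelled capture differed from the labelled one. No input library of unlabelled cells was analysed here, so a difference between unlabelled and labelled cells cannot be told apart from a difference between RNA before and after the beads. Library totals were 13127181, 14047432 and 15752255 counts in NonLabel_Enrich and 16353122, 14030151 and 16477229 counts in Label_Input. Whether replicates came from separate cultures is not stated, and p-values therefore reflect only the variation among these libraries, which may be technical.

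Streptavidin binds biotin almost irreversibly, and RNA that carries a biotin is pulled out of solution with the beads. RNA without biotin also stays behind on beads in small amounts, and an unlabelled capture is meant to measure this background. Because the withheld reagent is unknown, whether RNA of the NonLabel_Enrich cells carried any biotin is unknown here. Total RNA holds mostly ribosomal RNA, together with messenger RNAs and short structured RNAs: Y RNAs that bind the Ro60 protein, small nucleolar RNAs (snoRNAs) that guide the modification of ribosomal RNA, and small nuclear RNAs of the spliceosome.

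Genes with a conventional symbol and at least 20 CPM (counts at a library size shared by all samples) were ranked by their fall below input. The nuclear-encoded noncoding RNAs that fell furthest among them were short and belong to the classes of structured RNAs named above. The sequences of 5 of these RNAs are shown for their short length, which the comparison did not use. Capitals mark a feature of each class, which differs between the classes, and folding was not examined. They are the transcripts that GENCODE vM21 lists on the mouse build GRCm38, written in DNA letters from 5′ to 3′, while the deposited counts refer to build GRCm39. Rny1 (chr6:47788069-47788180, minus strand, 112 nt) and Rny3 (chr6:47781624-47781725, plus strand, 102 nt) are Y RNAs, and capitals mark the run of T at the 3′ end, the termination signal of RNA polymerase III. How often other transcripts end in such a run is not given here. Rnu12 (chr15:83149644-83149794, plus strand, 151 nt) is the U12 RNA of the minor spliceosome, and capitals mark AATTTTTG, the Sm site to which the Sm protein ring binds, present on the transcribed strand in 1.37% of 1383 annotated snRNA transcripts. Snord17 (chr2:144265979-144266216, minus strand, 238 nt) and Snord15a (chr7:99482785-99482932, minus strand, 148 nt) are box C/D snoRNAs, and capitals mark the first TGATGA and the last CTGA, the letters of boxes C and D, both of which occurred in 25.2% of 1507 annotated snoRNA transcripts. Snord17 lies in an intron of Snx5 and Snord15a in an intron of Rps3, on the strand of the host gene, and the others lie in no other annotated gene of that release.
Rny1: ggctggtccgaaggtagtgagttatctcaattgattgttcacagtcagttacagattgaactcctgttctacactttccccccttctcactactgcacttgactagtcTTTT
Rny3: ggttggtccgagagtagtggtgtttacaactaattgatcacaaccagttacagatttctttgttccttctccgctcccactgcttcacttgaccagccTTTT
Rnu12: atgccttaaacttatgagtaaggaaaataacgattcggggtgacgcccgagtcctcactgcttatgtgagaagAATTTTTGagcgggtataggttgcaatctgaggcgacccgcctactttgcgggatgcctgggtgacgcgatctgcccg
Snord17: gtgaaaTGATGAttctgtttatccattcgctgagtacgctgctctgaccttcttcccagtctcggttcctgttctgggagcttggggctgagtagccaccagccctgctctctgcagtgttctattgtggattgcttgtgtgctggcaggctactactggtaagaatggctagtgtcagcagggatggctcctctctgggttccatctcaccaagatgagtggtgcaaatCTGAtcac
Snord15a: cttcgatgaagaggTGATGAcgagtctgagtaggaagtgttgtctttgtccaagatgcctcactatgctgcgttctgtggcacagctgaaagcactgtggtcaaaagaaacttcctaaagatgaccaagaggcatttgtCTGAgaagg

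Without any scaling between libraries, the unlabelled capture held a smaller share of the most abundant feature and a larger share of protein-coding genes than the input. The feature ENSMUSG00000119584, which has no name in the annotation used here, took 63.8%, 63.3% and 66.9% of all counts in NonLabel_Enrich and 80.9%, 80.7% and 80.5% in Label_Input. Protein-coding genes without Lars2 took 24.1%, 22.8% and 21.0% in NonLabel_Enrich and 9.15%, 8.94% and 9.33% in Label_Input. Neither measure overlapped between the groups, and the mean share of protein-coding genes was 2.48 times higher after capture (22.6% ± 1.54 against 9.14% ± 0.192, SD, n = 3 each). Every class difference named here had an exact 2-sided permutation p of 0.1, the smallest that 3 libraries against 3 can give. The labelled capture went further in the same measure, with 28.7% ± 0.527 of counts in protein-coding genes and 59.3% ± 0.686 in ENSMUSG00000119584.

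Lars2, the mitochondrial leucyl-tRNA synthetase gene, was counted in 9.01% ± 1.03 of NonLabel_Enrich and 7.03% ± 0.185 of Label_Input reads, a share far beyond that of other protein-coding genes, which is why it was set apart. Whether these reads came from Lars2 mRNA was not tested. With the TMM scaling used below for single genes the direction of Lars2 was the opposite, a log2 fold change of -0.94 ± 0.04. Mitochondrial ribosomal RNA went from 1.35% ± 0.0213 in the input to 1.06% ± 0.0401 in the unlabelled capture and stood at 0.484% ± 0.0136 in the labelled capture. The share of the class that holds the Y RNAs was 0.0150% ± 0.00127 after unlabelled capture against 0.0449% ± 0.00232 before it, 0.334 times the input. snoRNAs took 0.0132% ± 0.000893 against 0.0311% ± 0.00220, 0.426 times the input. The summed share of long intergenic noncoding RNAs moved the other way, with 0.156% ± 0.00957 against 0.0552% ± 0.000830. When ENSMUSG00000119584 and Lars2 were left out of the totals, protein-coding genes still made up more of the unlabelled capture, 86.0% ± 0.438 against 74.6% ± 0.166, and mitochondrial ribosomal RNA less, 4.04% ± 0.357 against 11.1% ± 0.0515. On those totals long intergenic noncoding RNAs took 0.594% ± 0.00742 against 0.451% ± 0.00416, 1.32 times the input, while the class with the Y RNAs stood at 0.155 and snoRNAs at 0.198 times the input. With TMM scaling, 6 of 133 tested long intergenic noncoding RNAs were called higher and 17 lower, beside 14.8% and 14.7% of all tested genes. The median log2 fold change of the 133 was -0.06, so the summed share does not describe the typical member. Malat1 (697 against 548 CPM) and Neat1 (161 against 109 CPM) were among the higher ones.

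**Figure D1:**
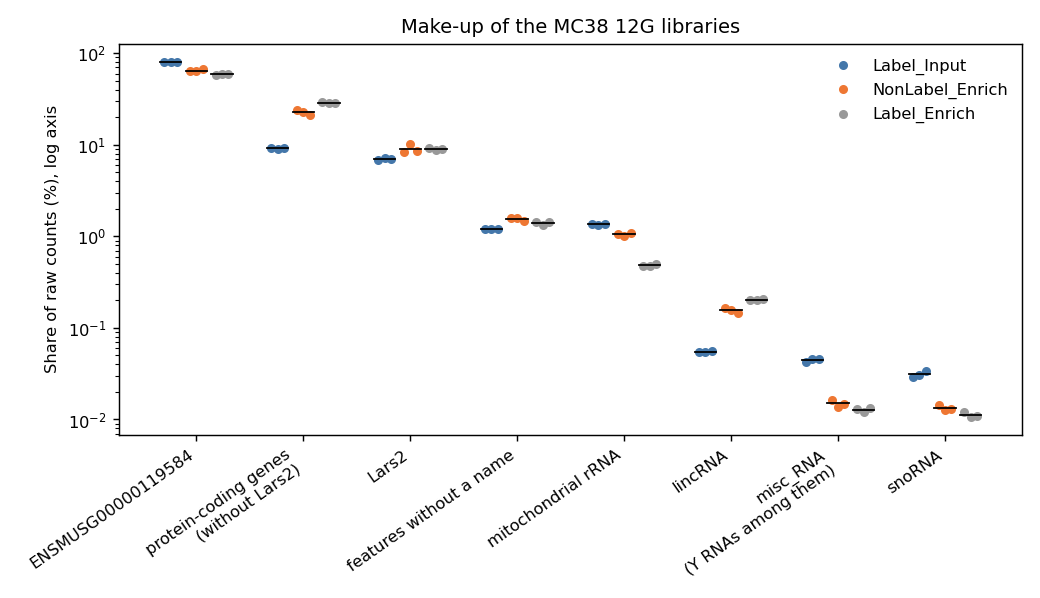
Share of raw counts (percent, log axis) taken by each class or single feature in the MC38 12G libraries; points are libraries, bars are means of 3. Protein-coding genes stand at 9.14% in Label_Input, 22.6% in NonLabel_Enrich and 28.7% in Label_Enrich, while snoRNA and misc_RNA shares are highest in Label_Input.

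Gene by gene, levels were expressed as CPM scaled with TMM factors, which set the bulk of tested genes equal, so that higher and lower below mean relative to that bulk. With edgeR's quasi-likelihood test at a Benjamini-Hochberg adjusted p under 0.05, 3440 of 11676 tested genes differed (29.5%), 1727 of them higher in NonLabel_Enrich (14.8%) and 1713 lower (14.7%), with a median log2 fold change of -0.02 over all tested genes. Counts of list members below are to be read beside these shares. In 4534 genes (38.8%) the 3 libraries of one group all lay on one side of the other 3. Scaled to raw library totals instead, the median gene stood at a log2 fold change of 1.28, 10840 genes were called higher and 89 lower, so that 99.2% of calls were higher against 50.2% with TMM factors. That share was 81.0% (3573 higher, 836 lower) with totals that left out the 2 most abundant features and 62.3% (2047 higher, 1237 lower) without a low-count filter. With raw totals 1379 of the 1713 lower genes were called higher and 89 remained lower, so a lower call holds on raw totals only where that is stated. The 89 comprised 38 features without a name, 31 snoRNAs, 4 scaRNAs, 4 snRNAs, 4 protein-coding genes, 2 mitochondrial rRNAs, 2 misc_RNAs, 2 genes of the class TEC, 1 mitochondrial tRNA and 1 rRNA.

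With TMM factors, falls were larger than rises. A difference of at least 2-fold was called in 279 genes that were lower (2.39%) and in 48 that were higher (0.411%). On raw totals the median gene stood at a log2 fold change of 1.28, so this order did not hold there. Of the 48 large rises, 44 had a mean level under 5 CPM, and 3 had a mean of at least 20 CPM: Plec, Myo18a and Filip1l. The rise of Filip1l came from 1 library and is given with the other observations. The 279 large falls included 121 protein-coding genes, 42 features without a name, 37 snoRNAs, 32 processed pseudogenes, 7 scaRNAs, 4 snRNAs and 3 misc_RNAs.

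The short noncoding RNAs fell furthest. Rny1 stood at 64.2, 61.4 and 68.8 CPM in NonLabel_Enrich and at 539, 605 and 579 CPM in Label_Input. Every captured library lay below every input library, with a log2 fold change of -3.15 ± 0.06 (SE, n = 3 against 3; edgeR adjusted p = 1.22e-51). Rny3 fell by 2.51 ± 0.06 on the log2 scale, from 306 ± 16.5 to 53.8 ± 6.32 CPM (SD, n = 3), and Rnu12 from 55.3 ± 4.08 to 8.30 ± 0.328 CPM. On raw totals these 3 were lower too, at log2 fold changes of -1.85, -1.20 and -1.44. They are the 3 tested members of a list of 15 Y, 7SL, 7SK, U-type, RNase and vault RNAs. All 3 were lower again in Label_Enrich than in NonLabel_Enrich, where 20.1% of all tested genes differed (9.63% lower), by 0.75 ± 0.06 for Rny1 and 1.18 ± 0.11 for Rnu12 (edgeR adjusted p = 1.61e-16 and 2.8e-13).

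Of 113 listed small nucleolar and Cajal body RNAs, 20 passed the low-count filter, and 16 of these were lower and 0 higher, with a median log2 fold change of -2.06. After removal of a trend on transcript length and GC content over all genes, described further on, the median was -0.50, and that of the list with the Y RNAs went from -2.73 to -1.30. These RNAs were themselves among the genes fitted, at the short end of the length range. The smaller medians therefore do not show how much of the fall length and GC content account for. Snord17 stood at 5.20, 5.91 and 5.21 CPM in NonLabel_Enrich and at 41.5, 45.6 and 53.1 CPM in Label_Input. These groups did not overlap (log2 fold change -3.10 ± 0.10). Snord15a fell by 2.61 ± 0.09, and Snord13, which takes part in processing of the small ribosomal subunit RNA, had a log2 fold change of -1.84 ± 0.10. Snora23, a box H/ACA RNA that guides pseudouridylation, went from 17.5 ± 1.95 to 1.06 ± 0.186 CPM. Scarna2, a longer RNA of the Cajal body with 414 nt, fell less, from 115 ± 2.78 to 54.7 ± 4.75 CPM, a log2 fold change of -1.07 ± 0.06. On raw totals Scarna2 was instead higher, at a log2 fold change of 0.24 (edgeR adjusted p = 0.00373). Of the list, 12 members were lower and 4 higher on raw totals. The list was drawn by symbol and held only part of the tested RNAs of these classes. By annotated class and with TMM factors, 37 of 40 tested snoRNAs and 8 of 9 tested scaRNAs were lower and 0 higher. Without scaling, scaRNAs took 0.0130% ± 0.00173 of counts in NonLabel_Enrich and 0.0130% ± 0.000329 in Label_Input. Because most snoRNAs lie in introns and how overlapping reads were counted is not stated, part of their counts may belong to host transcripts.

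Mitochondrially encoded RNAs were lower in the unlabelled capture and lower still in the labelled one. mt-Rnr1, the small ribosomal RNA of the mitochondrion, had 3120, 2989 and 3667 CPM in NonLabel_Enrich against 11570, 11544 and 11434 CPM in Label_Input, with 1398, 1395 and 1516 CPM in Label_Enrich. The 3 groups did not overlap, and the log2 fold change was -1.82 ± 0.04 for unlabelled capture against input and -1.18 ± 0.04 for labelled against unlabelled capture (edgeR adjusted p = 1.1e-45 and 3.92e-34). The large ribosomal RNA mt-Rnr2 fell by 1.54 ± 0.04 and then by 1.64 ± 0.04. Of 11 tested mitochondrial ribosomal RNAs and mRNAs, 9 were lower in NonLabel_Enrich than in input, with a median of -0.79, or -0.14 after removal of the trend on length and GC content. On raw totals the median was 0.51, with 7 of the 11 higher and 2, the ribosomal RNAs, lower.

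The mitochondrial mRNAs fell less than the ribosomal RNAs. mt-Nd2, a subunit gene of complex I, fell by 0.95 ± 0.06, mt-Nd1 by 0.79 ± 0.05, mt-Cytb, the complex III gene, by 0.39 ± 0.05 and mt-Co1, a complex IV gene, by 0.23 ± 0.05. mt-Nd5 stood at 250 ± 26.8 against 240 ± 4.42 CPM and was not called. mt-Nd6, the one mRNA of the light strand, was called higher at 0.18 ± 0.06 (edgeR adjusted p = 0.0245), a call that was lost without Label_Input replicate 1 (0.18), without Label_Input replicate 2 (0.16) and without NonLabel_Enrich replicate 3 (0.10). It overlaps mt-Nd5 on the other strand. Whether reads were counted by strand is not stated, so part of the mt-Nd6 counts may come from transcripts of the other strand. In Label_Enrich, 10 of the 11 were lower than in NonLabel_Enrich, with a median of -1.01, beside 9.63% of all tested genes.

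**Figure D2:**
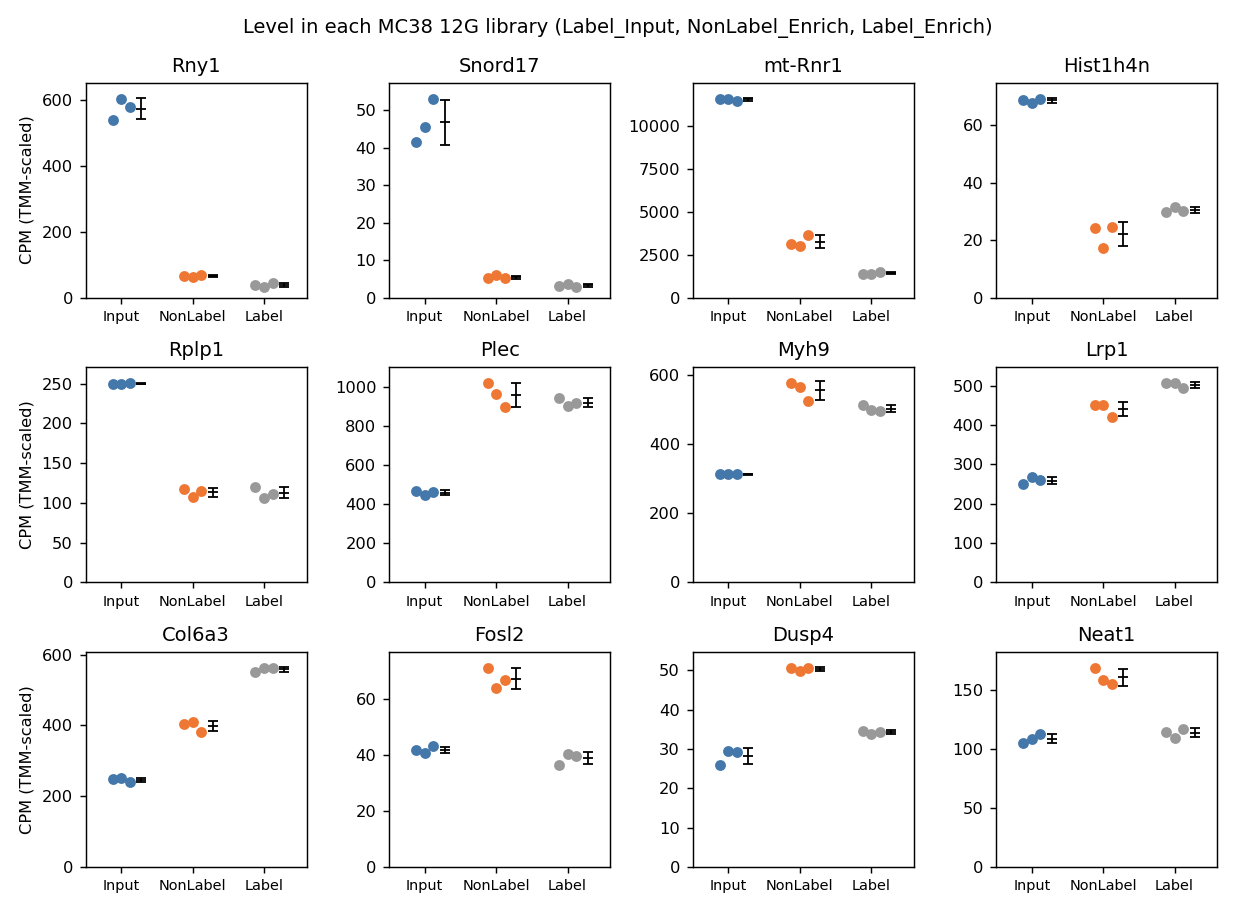
Level of 12 genes in each MC38 12G library (CPM scaled with TMM factors); points are libraries, and the bars beside them give the mean and SD of 3. Rny1, Snord17, mt-Rnr1, Hist1h4n and Rplp1 are highest in Label_Input, relative to the bulk of genes, while Plec, Myh9, Fosl2, Dusp4 and Neat1 are highest or near their highest in NonLabel_Enrich.

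Fold changes rose with transcript length. Genes were ranked by the length of 1 annotated transcript each, which was available for 11531 tested genes. Whether that transcript was the one expressed was not tested, so single lengths can be wrong. Over 5 quintiles of equal size, in the shortest (67 to 1613 nt) the median log2 fold change was -0.35, with 36.8% of genes lower and 1.78% higher. The medians of the following quintiles were -0.09, 0.02, 0.10 and 0.15, and in the longest quintile (4998 nt and above) 30.5% were higher and 4.51% lower. Across genes, which are not independent replicates, Spearman's rho between length and fold change was 0.42 (n = 11531).

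GC content ran in the same direction, with medians from -0.17 in the lowest quintile (up to 44.4% GC) through -0.04, 0.03 and 0.04 to 0.13 in the highest (55.8% and above), and a rho of 0.26. Long transcripts had the lower GC content (rho between both -0.24). Split by both, the 265 genes in the shortest and lowest-GC quintiles had a median of -0.43, with 37.4% lower and 0.377% higher. The 247 genes in the longest and highest-GC quintiles had a median of 0.44, with 68.4% higher and 0.405% lower. A quadratic trend on log length accounted for 25.3% of the variance of the fold changes, and length with GC content for 35.8%. Among the 2180 protein-coding genes with at least 20 CPM, a selection added with the values known, the medians by length ran from -0.31 to 0.25 with a rho of 0.58.

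The contrast of labelled against unlabelled capture showed little of this gradient in length. Its medians by length quintile were 0.06, 0.01, -0.01, -0.01 and -0.03. By GC quintile they fell from 0.13 in the lowest to -0.06 in the highest. Both contrasts share the NonLabel_Enrich libraries.

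**Figure D3:**
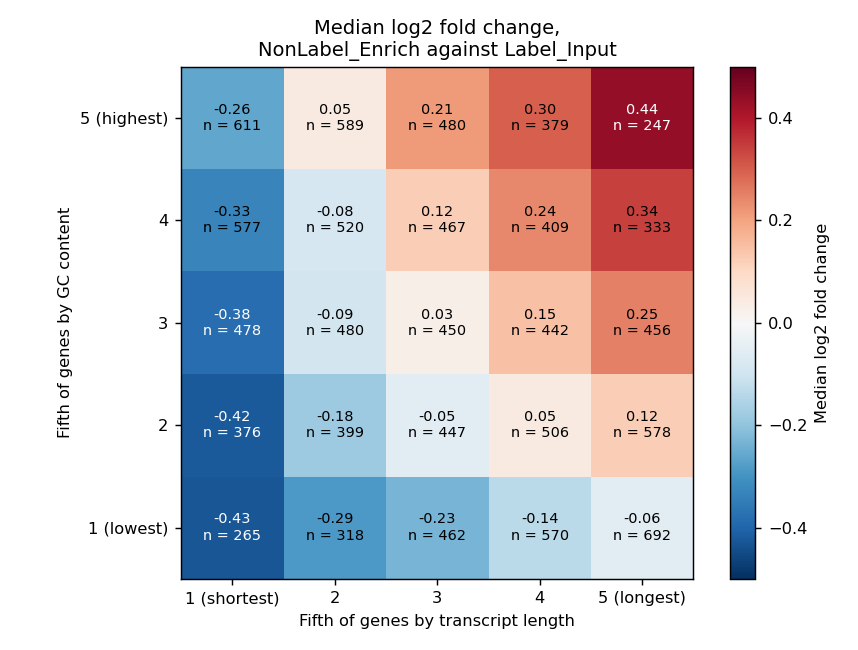
Median log2 fold change of NonLabel_Enrich against Label_Input for tested genes split into quintiles by transcript length (across) and GC content (up), with the number of genes in each cell. Medians run from -0.43 for short, GC-poor transcripts at the lower left to 0.44 for long, GC-rich transcripts at the upper right.

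Among genes with a conventional symbol and groups that did not overlap, the 12 with the largest rises at 20 CPM or more had annotated transcripts of 2740 to 15455 nt. Plec, which encodes the cytoskeletal linker plectin on an annotated transcript of 15455 nt, stood at 1020, 966 and 895 CPM in NonLabel_Enrich against 469, 445 and 461 CPM in Label_Input. The groups did not overlap (log2 fold change 1.07 ± 0.04, edgeR adjusted p = 2.55e-32). Labelled capture held 920 ± 22.5 CPM, not called different from unlabelled capture (-0.06 ± 0.04, edgeR adjusted p = 0.319). Among the others were Myo18a, an unconventional myosin, at 1.04 ± 0.08, Syne3, a linker of the nuclear envelope, at 0.89 ± 0.08, Myh9, the heavy chain of non-muscle myosin IIA, at 0.83 ± 0.04, Lrrc47 at 0.80 ± 0.09 and the kinesin gene Kif1c at 0.79 ± 0.06. Lrp1, an endocytic receptor, rose from 259 ± 8.64 to 440 ± 18.0 CPM, and Col4a1, a basement membrane collagen, from 28.8 ± 1.36 to 49.2 ± 2.73 CPM. Dusp4, a phosphatase gene of the MAP kinase pathway with a transcript of 2740 nt, had the shortest transcript of these 12, and rose by 0.84 ± 0.07.

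Genes for the translation machinery were lower as a group, relative to the bulk. Of 82 tested cytosolic ribosomal protein genes 78 were lower and 1 higher, with a median of -0.77; on raw totals the median was 0.54, 74 were higher and 0 lower. Rplp1, an acidic protein of the ribosomal stalk, stood at 117, 107 and 115 CPM in NonLabel_Enrich against 249, 250 and 251 CPM in Label_Input, with no overlap (-1.14 ± 0.05). Rpl34 fell by 1.23 ± 0.06, and the exception was Rpl7l1, a paralogue with a transcript of 2606 nt, at 0.27 ± 0.07. Many of these genes have near-identical pseudogenes, so their counts are uncertain. After removal of the trend on length and GC content the median was -0.31, against 0.00 for all genes.

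Of 37 elongation and initiation factors 25 were lower and 5 higher, with a median of -0.25, or -0.09 with length and GC content taken out. Tpt1, a translationally controlled tumour protein gene, fell by 0.74 ± 0.05, Rack1, a scaffold on the small subunit, by 0.60 ± 0.04 and Eef1a1, the elongation factor that delivers tRNAs, by 0.25 ± 0.04. Eif4g1, the long scaffold of the cap-binding complex, rose by 0.43 ± 0.05. The 25 lower members had a median length of 1633 nt and the 5 higher ones 3854 nt. On raw totals all 37 were higher.

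Nuclear-encoded genes of the respiratory chain showed 65 of 80 lower and 0 higher, with a median of -0.61. Cox7c, a small complex IV subunit, fell by 1.23 ± 0.12, Cox7b by 1.03 ± 0.10 and Cox6c by 0.98 ± 0.08, while Atp5b, the catalytic subunit of ATP synthase, stood at 244 ± 10.5 against 247 ± 1.77 CPM. Of 77 mitochondrial ribosomal protein genes 36 were lower and 0 higher, with a median of -0.38. With length and GC content taken out, the medians of these lists were -0.17 and -0.15, and on raw totals they turned to 0.68 and 0.92. Of 42 proteasome genes 24 were lower and 2 higher (Psme3 and Psmd2), with a median of -0.23, or -0.03 with both trends taken out and 1.07 on raw totals. The call of Psmd2 was lost when any of 4 single libraries was left out: Label_Input replicate 1 (0.11) or 3 (0.13), or NonLabel_Enrich replicate 1 (0.13) or 2 (0.12).

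Replication-dependent histone genes, whose mRNAs are short and end in a stem-loop instead of a poly(A) tail, were lower in 51 of 56 tested members and higher in 0, with a median of -1.01. Hist1h4n had 24.4, 17.3 and 24.7 CPM in NonLabel_Enrich against 69.0, 67.8 and 69.4 CPM in Label_Input, and the groups did not overlap (-1.63 ± 0.08). Hist1h3b fell by 1.50 ± 0.09, Hist1h3g by 1.43 ± 0.08, Hist1h2bn by 1.35 ± 0.07 and Hist1h4c by 1.25 ± 0.06, while Hist2h2be stood at 3.98 ± 0.186 against 3.82 ± 0.727 CPM. The members are near-identical copies, so counts of single genes are uncertain. With length and GC content taken out, the median was -0.51. On raw totals it was 0.29, with 36 higher and 1 lower. Against the labelled capture, 31 of the 56 were higher in Label_Enrich than in NonLabel_Enrich (10.4% of all tested genes were) and 0 lower, with a median of 0.28.

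**Figure D4:**
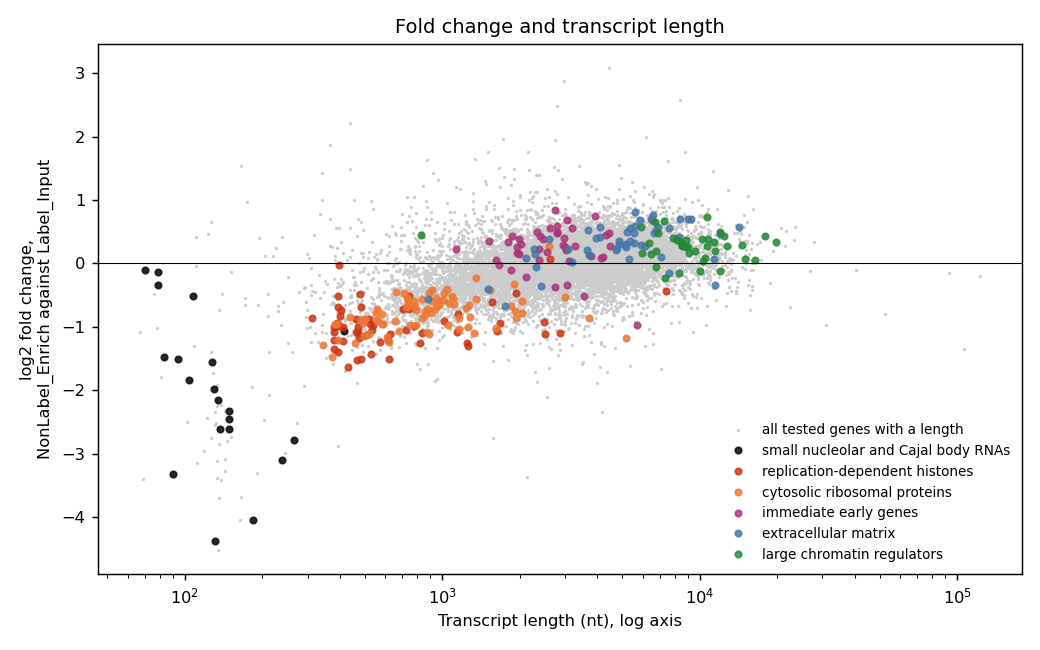
Log2 fold change of NonLabel_Enrich against Label_Input for each tested gene by the length of its annotated transcript (nt, log axis), with 6 gene lists in colour. snoRNAs, histones and ribosomal protein genes lie mostly at short lengths below 0. Extracellular matrix genes and the genes named as large chromatin regulators lie mostly at long lengths and above 0, with Ahnak of the latter list at 830 nt. On raw totals the histone and ribosomal protein medians turn to 0.29 and 0.54.

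Immediate early genes, switched on within minutes by growth factors or stress and encoding short-lived mRNAs, were higher in 24 of 44 tested members and lower in 4, with a median of 0.27. With length and GC content taken out the median was 0.25. Fosl2, a subunit gene of the transcription factor AP-1, stood at 71.3, 64.1 and 66.9 CPM in NonLabel_Enrich against 41.7, 40.9 and 43.2 CPM in Label_Input and 36.4, 40.5 and 39.8 CPM in Label_Enrich. All 3 unlabelled captures lay above both groups of labelled cells (0.68 ± 0.06 against input, and -0.80 ± 0.06 for labelled against unlabelled capture; edgeR adjusted p = 5.12e-14 and 1.05e-18).

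Dusp4 showed 50.5, 49.9 and 50.7 CPM in NonLabel_Enrich, 25.8, 29.6 and 29.4 CPM in Label_Input and 34.7, 33.8 and 34.4 CPM in Label_Enrich, again with the unlabelled capture highest. Jun, another AP-1 gene, rose by 0.56 ± 0.05 against input, Arc by 0.68 ± 0.13, Egr3, a zinc finger transcription factor gene, by 0.75 ± 0.18, Dusp1, a phosphatase of MAP kinases, by 0.39 ± 0.06, Egr1 by 0.27 ± 0.05 and Zfp36, which destabilises AU-rich mRNAs, by 0.47 ± 0.10. Klf6 stood at 64.5 ± 3.66 against 60.2 ± 1.70 CPM and was not called. The 4 lower members were Klf10, Btg2, Nr4a2 and Nr4a3, with log2 fold changes of -0.34 ± 0.08, -0.36 ± 0.12, -0.52 ± 0.18 and -0.97 ± 0.33. Without single libraries the last 3 lost their calls. For Btg2 these were Label_Input replicate 2 (-0.27) and NonLabel_Enrich replicate 2 (-0.32). For Nr4a2 they were Label_Input replicates 1 (-0.40) and 2 (-0.49) and NonLabel_Enrich replicate 2 (-0.44). For Nr4a3 they were Label_Input replicates 2 (-0.91) and 3 (-0.96) and NonLabel_Enrich replicates 1 (-0.94) and 3 (-0.79).

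Within the captures the same list was lower in Label_Enrich than in NonLabel_Enrich in 40 of 44 members and higher in 0, with a median of -0.88. Over all tested genes 9.63% were lower there and 10.4% higher. Arc had a log2 difference of -1.75 ± 0.11 there, Egr3 -1.72 ± 0.16, Dusp1 -1.39 ± 0.05 and Egr1 -1.28 ± 0.05. Labelled capture was also below labelled input, with a list median of -0.71. Since unlabelled cells had no input library, whether their RNA differed before capture was not tested.

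Other stimulus lists were mixed, and over all tested genes 14.8% were higher and 14.7% lower. Of 23 targets of the integrated stress and unfolded protein responses 4 were higher and 7 lower, with a median of -0.06: Chac1, a glutathione-degrading enzyme gene, rose by 0.43 ± 0.07, and the transcription factor gene Atf4 fell by 0.29 ± 0.05. Of 17 NRF2 targets and ferritin genes 2 were higher and 7 lower (median -0.13), among them Prdx1, a peroxiredoxin gene, at -0.78 ± 0.05 and the ferritin gene Fth1 at -0.38 ± 0.04. Of 19 NF-κB targets and chemokines 5 were higher and 6 lower (median -0.10). The chemokine genes Ccl2 and Ccl7, with transcripts of 813 and 801 nt, fell by 0.82 ± 0.07 and 0.87 ± 0.08, and Csf1, a macrophage growth factor gene with a transcript of 4176 nt, rose by 0.30 ± 0.06. Of 20 cytosolic heat shock protein genes 7 were lower and 1, Hsp90ab1, was higher at 0.30 ± 0.04 (median -0.03).

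Genes of the secretory pathway, whose mRNAs are translated at the ER, did not move as one. Of 51 extracellular matrix genes 36 were higher and 4 lower, with a median of 0.31. Col6a3, a collagen VI chain, stood at 403, 410 and 381 CPM in NonLabel_Enrich against 249, 250 and 240 CPM in Label_Input and 551, 563 and 562 CPM in Label_Enrich, in 3 separate ranges (0.69 ± 0.04 against input, and 0.49 ± 0.04 for labelled against unlabelled capture; edgeR adjusted p = 3.24e-22 and 1.22e-15). Hspg2, the gene of the basement membrane proteoglycan perlecan, rose by 0.57 ± 0.04, and Col4a2 by 0.69 ± 0.06. The 36 higher members had a median length of 5472 nt. The 4 lower ones, with a median of 1633 nt, were the protease inhibitor gene Timp1 (-0.56 ± 0.09), the small proteoglycan genes Dcn (-0.67 ± 0.07) and Bgn (-0.35 ± 0.04) and Spp1, which encodes osteopontin (-0.41 ± 0.05). With length and GC content taken out, the list median was 0.08. In the labelled capture 39 of the 51 were higher than in the unlabelled one and 2 lower, with a median of 0.47. Over all tested genes 10.4% were higher there and 9.63% lower.

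Of 47 genes for cell surface receptors and adhesion proteins 29 were higher and 4 lower, with a median of 0.25, which became 0.02 with length and GC content taken out. Plxnb2, a semaphorin receptor gene, rose by 0.55 ± 0.05 and Igf2r, a sorting receptor gene, by 0.63 ± 0.05, while the hyaluronan receptor gene Cd44 stood at 99.6 ± 4.09 against 105 ± 2.61 CPM. The lower members were Bsg (-0.32 ± 0.05), Cd9 (-0.41 ± 0.06), Cd81 (-0.26 ± 0.07) and Cd47 (-0.28 ± 0.08), with annotated transcripts of 1228 to 1533 nt. The call of Cd81 was lost without Label_Input replicate 3 (-0.19).

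Of 39 ER chaperones and folding enzymes 11 were higher and 4 lower, with a median of 0.15 (0.09 with length and GC content taken out). Hyou1, a large heat shock protein of the ER lumen, had 71.2, 67.3 and 62.9 CPM in NonLabel_Enrich, 44.6, 46.3 and 44.8 CPM in Label_Input and 94.8, 97.2 and 97.7 CPM in Label_Enrich, with no overlap between the 3 groups (0.57 ± 0.06 against input and 0.52 ± 0.05 for labelled against unlabelled capture). Fkbp9 rose by 0.40 ± 0.07 and Hspa5, the chaperone BiP, by 0.18 ± 0.04. The 4 lower were Ero1l (-0.55 ± 0.14), Manf (-0.36 ± 0.11), Dnajc10 (-0.30 ± 0.08) and Erp44 (-0.28 ± 0.11). Manf lost its call without Label_Input replicates 1 (-0.29) or 2 (-0.31) or NonLabel_Enrich replicate 1 (-0.26), and Erp44 without any of the 3 Label_Input libraries (-0.26 to -0.30) or NonLabel_Enrich replicate 3 (-0.20). Between the captures 33 of the 39 were higher in Label_Enrich and 0 lower, with a median of 0.40, beside 10.4% and 9.63% of all tested genes.

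Of 36 genes of the translocon, signal peptidase and oligosaccharyltransferase, membrane machinery of the same organelle, 15 were lower, 1 higher and 20 not called (median -0.16, -0.05 with length and GC content taken out and 1.14 on raw totals). The small translocon subunit genes Sec61g and Sec61b fell by 1.09 ± 0.14 and 0.70 ± 0.11, and Rpn2 stood at 74.5 ± 3.71 against 75.5 ± 2.56 CPM. The one higher member was Magt1, at 0.26 ± 0.10 (edgeR adjusted p = 0.0422), whose groups overlapped and whose call was lost without Label_Input replicates 1 (0.24) or 3 (0.16) or NonLabel_Enrich replicates 1 (0.24) or 2 (0.27). Of 33 lysosomal genes 11 were lower and 3 higher (median -0.13, -0.12 with length and GC content taken out and 1.17 on raw totals), with the membrane protein gene Lamp1 at -0.32 ± 0.05 and the sphingolipid activator gene Psap at 0.22 ± 0.05. Of 41 Golgi and coat-vesicle genes 10 were higher and 9 lower (median -0.03). Of 22 sterol genes 6 were higher and 3 lower (median 0.09), among them the regulator gene Srebf2 at 0.55 ± 0.05. In the labelled against the unlabelled capture 21 of the 36 translocon genes and 25 of the 33 lysosomal genes were higher, and 0 of either lower. Over all tested genes 10.4% were higher there and 9.63% lower.

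Cytoskeleton genes went both ways. Of 37 tested members 15 were higher and 15 lower, with a median of -0.07 that was 1.23 on raw totals. The higher members had transcripts of 2233 to 23495 nt with a median of 8393 nt, and the lower ones 690 to 2649 nt with a median of 1803 nt. Flna, which encodes the actin cross-linker filamin A, rose by 0.58 ± 0.04, Tln1, the integrin linker talin, by 0.68 ± 0.05, and the giant spectraplakin genes Macf1 and Dst by 0.57 ± 0.06 and 0.37 ± 0.05. Tmsb4x, an actin-sequestering peptide gene, fell by 0.81 ± 0.08, Tmsb10 by 0.62 ± 0.07 and Actb, the cytoplasmic actin gene, from 1391 ± 33.7 to 1057 ± 23.0 CPM. Vim, the mesenchymal intermediate filament gene, stood at 625 ± 6.45 against 660 ± 17.6 CPM and was not called.

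Of 17 glycolysis genes 5 were higher and 6 lower (median -0.10), with Pkm at 0.26 ± 0.04 and Gapdh, which has many pseudogene copies, at -0.74 ± 0.08. The 5 higher had a median length of 3730 nt and the 6 lower 1783 nt.

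Among nuclear functions, a list of 40 long genes, chosen for their size and mostly encoding chromatin regulators, was higher in 24 and lower in 0, with a median of 0.28 and a median length of 9061 nt. Its member Ahnak rose by 0.45 ± 0.04, and the annotated transcript used for it had only 830 nt. Chd4, a remodelling helicase gene, rose by 0.65 ± 0.05 and Prrc2b by 0.73 ± 0.07, while Mki67, a marker of dividing cells, stood at 80.3 ± 0.810 against 87.7 ± 3.49 CPM and was not called. With length and GC content taken out, the median of that list was -0.02. Against the labelled capture, 18 of the 40 were lower in Label_Enrich and 2 higher, with a median of -0.14, beside 9.63% and 10.4% of all tested genes.

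Of 47 splicing factors of the hnRNP and SR families 14 were higher and 10 lower (median -0.01), with Hnrnpa0 at 0.72 ± 0.06 and Hnrnpm at 0.55 ± 0.05, while Hnrnpa1 stood at 222 ± 15.1 against 223 ± 6.76 CPM. Of 28 nuclear pore genes 4 were higher and 7 lower (median 0.02). Of 16 cyclins, CDKs and CDK inhibitors 2 were higher and 5 lower (median -0.05), with Cdk4 at -0.40 ± 0.05 and Ccnd1 at 0.28 ± 0.05. Of 286 Zfp-named zinc finger genes 29 were higher and 12 lower (median -0.03), below the 14.8% and 14.7% of all tested genes in both directions.

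Among membrane transporters, 23 of 141 solute carriers other than SLC25 were higher and 8 lower (median 0.02), with the taurine transporter gene Slc6a6 at 0.49 ± 0.06 and the anion exchanger gene Slc4a2 at 0.53 ± 0.07. The 16.3% higher among these carriers lay near the 14.8% of all tested genes. Of 36 mitochondrial SLC25 carriers 7 were lower and 1 higher (median -0.01), with the adenine nucleotide carrier gene Slc25a5 at -0.47 ± 0.05. Of 143 TMEM-named membrane protein genes 28 were lower and 8 higher (median -0.16), and Tmem258, an oligosaccharyltransferase subunit gene with a transcript of 606 nt, fell by 1.16 ± 0.16.

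Long noncoding RNAs went both ways. Neat1, the scaffold RNA of nuclear paraspeckles, with an annotated transcript of 20771 nt, stood at 169, 159 and 156 CPM in NonLabel_Enrich against 105, 109 and 113 CPM in Label_Input and 115, 110 and 117 CPM in Label_Enrich. The unlabelled capture lay above both other groups (0.56 ± 0.05 against input). Malat1, an RNA of nuclear speckles, rose by 0.35 ± 0.04. These were the 2 higher of 24 tested nuclear and snoRNA-host transcripts, of which 14 were lower, with a median of -0.55 (-0.17 with length and GC content taken out and 0.74 on raw totals). Gas5, a short snoRNA host, fell by 0.71 ± 0.07.

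**Figure D5:**
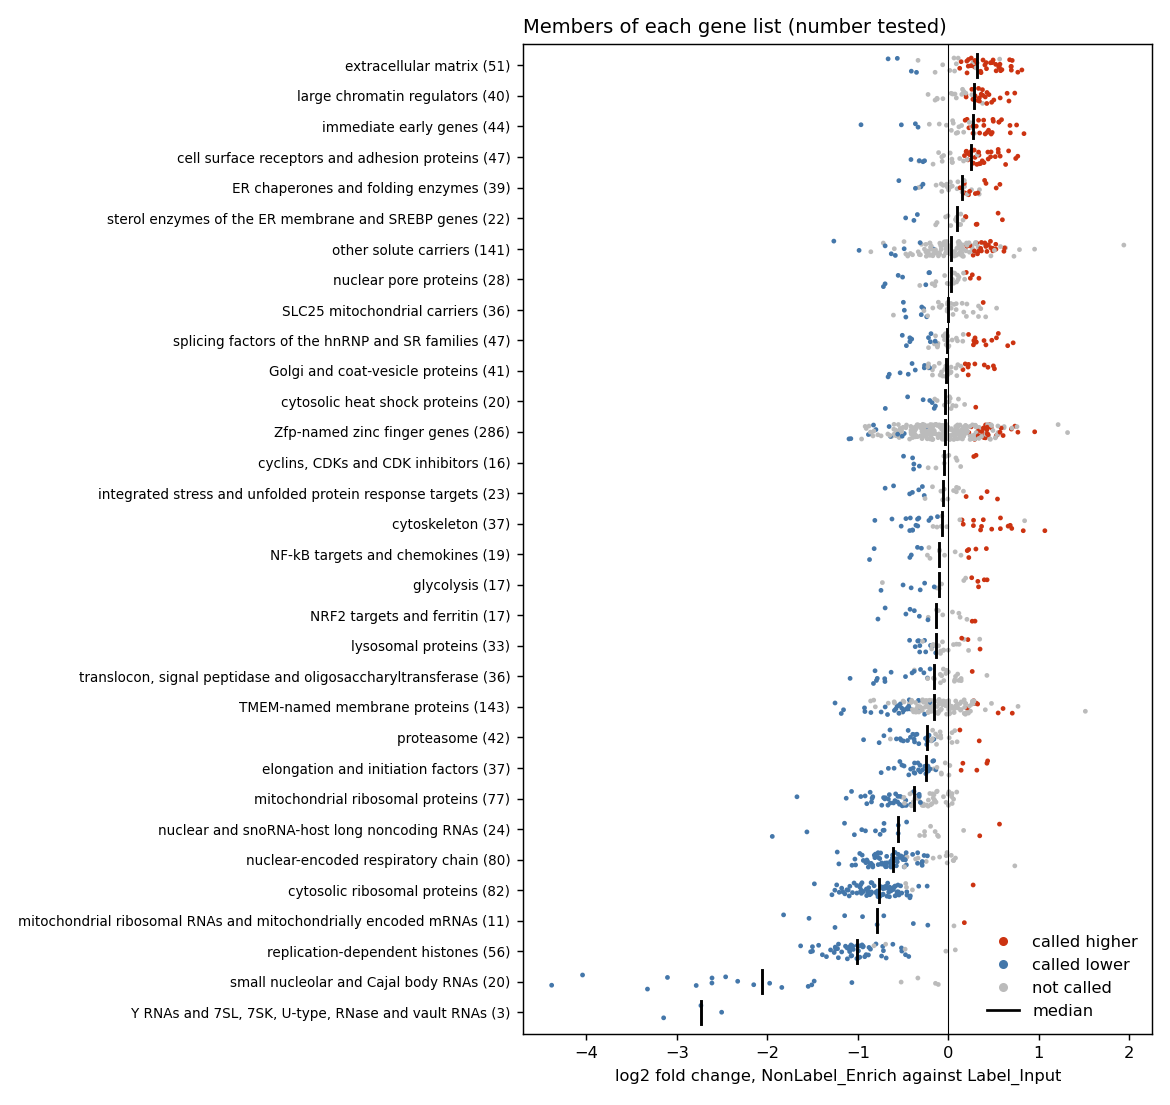
Log2 fold change of NonLabel_Enrich against Label_Input for every tested member of the 32 gene lists, with the number tested in brackets; colours give the call and black bars the medians. Medians run from -2.73 for the Y and U-type RNAs to 0.31 for extracellular matrix, relative to the bulk of tested genes; on raw totals the list medians other than those of the lowest 2 lists were above 0.

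Marker genes were checked against the label of the line. Of 18 intestinal epithelial markers, 18 were below 1 CPM in every group and 6, Epcam, Krt20 and Cdx2 among them, had 0 counts in all 9 libraries. Their summed level was 1.52 to 1.69 CPM in NonLabel_Enrich and 1.72 to 2.16 CPM in Label_Input, so the defining markers of the tissue of origin were at or near 0. Of 12 mesenchymal markers 11 were tested, with a summed level of 1368 to 1414 CPM in NonLabel_Enrich and 1288 to 1334 CPM in Label_Input. Blood cell markers were at 0 in all libraries for 8 of 16 and summed to 7.20 to 8.46 against 8.78 to 9.29 CPM. In bulk libraries such as these, fewer cells of a type and less RNA per cell cannot be told apart.

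The spread between replicates of the unlabelled capture lay between those of the other groups. Over the 2248 genes with at least 20 CPM, the median SD of log2 CPM was 0.0630 in NonLabel_Enrich, 0.0790 in Label_Input and 0.0492 in Label_Enrich. Counts outside the 2 most abundant features were 3660109 to 3869477 in NonLabel_Enrich and 1686731 to 2058350 in Label_Input, so that the input values rest on fewer reads for most genes.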

How the data were processed

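Per the labels' protocols, an NEBNext Ultra II kit turned total RNA into libraries. Mouse build GRCm39 and the tools DESeq2 (1.16.1), HTSeq (0.7.2), HISAT2 (2.1.0) and cutadapt (1.18) are named, without roles, in the submitters' processing notes. The authors deposited raw counts, whole numbers for each Ensembl gene and library, in 1 table per set. Strand, multiply matching reads and the release of the annotation are not described there.

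One model was fitted to all 9 MC38 12G libraries, with a coefficient for each group, in edgeR 4.0.16 (R 4.3.3). Genes passed filterByExpr with the groups given, scaling used TMM factors, and the test was the quasi-likelihood F test (2-sided). Benjamini-Hochberg adjustment ran over all tested genes; a call needed an adjusted p under 0.05. SEs were obtained as |log2 fold change| / √F. The procedure was tested on simulated data in which all groups had the same make-up apart from a set of genes with known changes. That test therefore does not cover a shift in composition such as the one between these groups. The MC38 3G set had 67.8% to 68.9% of the 12G totals and 0 features with more counts. It was read as a shallower count of the same libraries and served as an alternative. GENCODE vM21 (GRCm38) supplied names, classes, transcript lengths and GC content for 52073 of the 56691 features and 11531 of the tested ones. Trends on log length and GC content were quadratic and were fitted over all tested genes with a length, list members included.

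The members, the 32 gene lists and the 4 marker lists were chosen with earlier results of these data known. Genes were named by rule. It took the 12 largest changes each way among called genes averaging 20 CPM or more, with groups that did not overlap and a conventional symbol. It added up to 3 members of each list by smallest p, the most abundant member of each list that was not called, the 10 most abundant features and 14 fixed names. Some of these are not reported here. Genes outside the rule, named after their values were seen, are the exceptions within lists and mt-Co1, mt-Nd1, mt-Cytb, Arc, Egr3, Dusp1, Zfp36, Scarna2, Tln1, Macf1, Dst, Tmsb4x, Tmsb10, Eif4g1 and Filip1l.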

Additional observations from a re-analysis of the deposited data

How the results depend on the processing

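The count of higher and of lower genes stayed within 1.5 times its value under TMMwsp factors, with the strict filter, without a filter, in a fit of the 6 libraries alone, in the 3G table and in DESeq2 (1419 higher, 1315 lower). Leaving out any 1 library gave 1435 to 1716 higher and 1408 to 1666 lower genes. Scaling to raw library totals gave 10840 higher and 89 lower genes, and totals without the 2 most abundant features 3573 and 836, with shifts of 1.30 and 0.20 in the median log2 fold change; direction therefore holds relative to the bulk of genes. A replicate block gave 1730 and 1702. Same-numbered deviations correlated at -0.011 to 0.020. NonLabel_Enrich replicate 1 correlated at 0.0066 with Label_Input replicate 2 and at -0.0098 with Label_Input replicate 1. Values this near 0 cannot settle whether same-numbered libraries belong together, and the main fit used no pairing.

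For single named genes, Cd44 turned to 0.00064 without a filter, mt-Nd5 ranged from -0.029 to 0.11 and Filip1l from -0.12 to 3.62 when libraries were left out. Calls lost without 1 library stand beside the genes, except Grn, a higher lysosomal gene (0.12 to 0.14 without single libraries). At least 1 other setting also ended the calls of Btg2, Nr4a2, Nr4a3, Cd47, Magt1, Psmd2, Erp44 and Grn, and at least 1 setting called Tug1, Klf6, Vim, Mki67 and mt-Nd5. Features without a name turned to 0.599 times the input share without the 2 most abundant features.

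List medians changed sign as follows, and the cause was not tested. Their main values lay between -0.10 and 0.02, except that of the large chromatin regulators (0.28). Without a filter they were 0.013 (stress response targets), 0.040 (heat shock proteins), 0.044 (Golgi), 0.00076 (cytoskeleton), 0.061 (splicing factors), 0.038 (Zfp-named genes), 0.025 (cyclins) and 0.065 (SLC25). With the length trend removed they were 0.015 (stress response targets), 0.00049 (Golgi), 0.043 (cytoskeleton), 0.048 (glycolysis), -0.049 (nuclear pore) and -0.022 (other solute carriers). With length and GC trends removed they were 0.022 (Golgi), 0.0043 (glycolysis), -0.073 (nuclear pore), 0.13 (splicing factors), -0.022 (large chromatin regulators) and -0.020 (other solute carriers). Other settings gave 0.0059 (splicing factors) and 0.0097 (SLC25) with TMMwsp, 0.057 (Zfp-named genes) with the strict filter, 0.023 (Zfp-named genes) and 0.058 (SLC25) in the 3G table, and 0.0031 (SLC25) in DESeq2. Leave-one-out ranges were -0.097 to 0.018 (heat shock), -0.066 to 0.0026 (Golgi), -0.093 to 0.031 (cytoskeleton), -0.0042 to 0.053 (nuclear pore), -0.028 to 0.023 (splicing), -0.055 to 0.0080 (Zfp-named genes), -0.11 to 0.00041 (cyclins) and -0.043 to 0.088 (SLC25).

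Depth limits the input most. Its libraries hold 1686731 to 2058350 counts outside the 2 most abundant features, so small differences of genes with few counts were not detectable.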

Other observations

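Filip1l, a gene for a protein related to filamin-interacting protein 1, was singled out after its values were seen. Its counts were 198, 5305 and 221 in the 3 NonLabel_Enrich libraries and 107, 89 and 106 in Label_Input, which correspond to 11.3, 299 and 12.0 CPM against 12.9, 12.7 and 12.4 CPM. NonLabel_Enrich replicate 2 alone was high, and the other 5 libraries lay within a narrow range. The log2 fold change of 3.08 became -0.12 without that library (edgeR adjusted p = 0.54).

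Mir6236, annotated as a microRNA gene and among the 10 most abundant features, had 2596, 2852 and 2585 CPM in NonLabel_Enrich against 1822, 2021 and 1976 CPM in Label_Input, a log2 fold change of 0.47 ± 0.05 (edgeR adjusted p = 4.16e-13). Its levels in NonLabel_Enrich and Label_Input did not overlap. Whether its reads came from a microRNA was not tested.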
